A study of Mus musculus with 2 samples.

Results

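Globin, heme and red-cell membrane genes were followed through 2 single-cell libraries of mouse long-bone periosteum. The 9 genes were chosen by name: the adult alpha-globin genes Hba-a1 and Hba-a2, the adult beta-globin genes Hbb-bs and Hbb-bt, the globin chaperone gene Ahsp, the heme enzyme gene Alas2, the mitochondrial iron carrier gene Slc25a37, the anion exchanger gene Slc4a1 and the glycolytic enzyme gene Bpgm. Of these, 8 were matched by symbol among 32285 mouse genes, and Ahsp was not analysed here. Both libraries, replicates 1 and 2 of a single group, came from femurs and tibias of C57BL6 WT mice at 4 weeks of age. The counts also hold a reporter entry, EGFP, which was among the top 10 genes of a chondrocyte cluster. Whether these mice carried a reporter was not tested. The study freed the cells from peeled periosteum with collagenase and sorted them, by DAPI and by antibodies to Ter-119, CD31 and CD45, for cells outside the blood and endothelial lineages. How many mice went into either library is not given in the sources used here, so the errors and p-values below measure the spread between these 2 libraries, which may be technical.

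Red blood cells carry oxygen with hemoglobin, a tetramer of alpha-globin and beta-globin chains that each hold a heme. Heme is built in mitochondria from glycine, succinyl-CoA and iron: Alas2 encodes the erythroid form of the first enzyme of the pathway, and Slc25a37 encodes mitoferrin 1, which carries iron into the mitochondrion. Slc4a1 encodes band 3, the anion exchanger that anchors the skeleton of the cell to the membrane, and Bpgm encodes bisphosphoglycerate mutase, whose product 2,3-bisphosphoglycerate lowers the oxygen affinity of hemoglobin. Erythroblasts mature in the marrow from large dividing cells that express the carbonic anhydrase gene Car1 to small cells that lose the nucleus and become reticulocytes. Ter-119 is a surface antigen of the late stages of this lineage.

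The paired globin genes lie close together. On GRCm38, with GENCODE M21, Hba-a1 spans chr11:32283511-32284465 and Hba-a2 chr11:32296489-32297298, both on the plus strand with 3 exons and 12023 bases apart. Hbb-bs spans chr7:103826534-103828096 and Hbb-bt chr7:103812524-103813996, both on the minus strand with 3 exons and 12537 bases apart. Alas2 spans chrX:150547375-150570638 (plus strand), Slc25a37 chr14:69241848-69285112 (minus), Slc4a1 chr11:102348824-102366203 (minus) and Bpgm chr6:34476207-34505613 (plus). Hba-a1 and Hba-a2 share 428 of 429 coding bases, and Hbb-bs and Hbb-bt share 443 of 444. Their 3′ untranslated regions are 82.2% and 70.1% identical. In the alpha-globin pair 74 of 90 aligned columns are identical. Each base of the shorter region is thus matched, and that pair differs there only by extra bases in the longer region. The regions of both pairs are short, 74 and 90 bases in the alpha-globin pair and 131 and 132 bases in the beta-globin pair. Reads of a 3′ library can thus lie in the coding sequence, and how many did was not measured. A read that ends there cannot be placed in 1 gene of a pair, so the split within each pair is uncertain. The same holds for each level given below for 1 gene of a pair.

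The 250 bases before the RefSeq start of 5 members are shown to set the globin genes and Alas2, which rose together, beside Bpgm, which rose later. RefSeq windows on GRCm38.p6 were matched for 6 of the 8 members, and none was used here for Slc25a37 and Slc4a1. Capitals mark matches on either strand, which can overlap, of a GATA motif (GATAA or GATAG with an A or T before it), the CACCC box, the CCAAT box and the TATAA box. The gene spans of GENCODE M21 given above reach into some of these windows. Over 32851 such windows, 26.5% held a GATA motif, 52% CACCC, 33.8% CCAAT, 22.8% TATAA and 1.08% all 4.
Hba-a1 (chr11:32283422-32283671, plus strand): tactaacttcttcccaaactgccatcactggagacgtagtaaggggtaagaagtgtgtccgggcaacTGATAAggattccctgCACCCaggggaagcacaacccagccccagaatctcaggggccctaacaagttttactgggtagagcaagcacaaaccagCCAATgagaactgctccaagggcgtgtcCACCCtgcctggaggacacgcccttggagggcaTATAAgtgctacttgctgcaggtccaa
Hbb-bs (chr7:103827929-103828178, minus strand): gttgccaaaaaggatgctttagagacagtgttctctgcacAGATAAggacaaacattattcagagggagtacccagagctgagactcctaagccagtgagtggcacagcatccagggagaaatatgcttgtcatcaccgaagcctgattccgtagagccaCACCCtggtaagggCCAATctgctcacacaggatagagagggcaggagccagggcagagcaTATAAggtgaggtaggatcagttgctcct
Hbb-bt (chr7:103813924-103814173, minus strand): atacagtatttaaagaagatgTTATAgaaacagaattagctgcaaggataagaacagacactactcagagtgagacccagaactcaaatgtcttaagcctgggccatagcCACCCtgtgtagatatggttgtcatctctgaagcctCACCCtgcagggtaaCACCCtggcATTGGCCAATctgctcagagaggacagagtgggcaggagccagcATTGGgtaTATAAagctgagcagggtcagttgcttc
Alas2 (chrX:150547167-150547416, plus strand): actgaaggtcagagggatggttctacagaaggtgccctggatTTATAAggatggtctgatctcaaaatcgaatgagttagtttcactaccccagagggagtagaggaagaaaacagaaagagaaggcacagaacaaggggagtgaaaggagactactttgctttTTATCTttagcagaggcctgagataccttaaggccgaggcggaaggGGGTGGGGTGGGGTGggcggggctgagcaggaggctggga
Bpgm (chr6:34476106-34476355, plus strand): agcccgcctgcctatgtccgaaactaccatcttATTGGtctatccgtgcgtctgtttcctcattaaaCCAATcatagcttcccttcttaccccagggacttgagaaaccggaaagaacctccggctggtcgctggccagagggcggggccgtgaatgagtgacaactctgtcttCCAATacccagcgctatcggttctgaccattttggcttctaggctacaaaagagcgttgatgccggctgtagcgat
The Hba-a2 window was 97.6% identical to that of Hba-a1 and held the same 5 matches, whereas the Hbb-bs and Hbb-bt windows were 70.5% identical. All 4 motifs were in the Hba-a1, Hba-a2 and Hbb-bs windows. The Hbb-bt window held 3 CACCC, 3 CCAAT and 2 TATAA matches and no GATA motif, and the Alas2 window held 1 GATA motif, 3 CACCC and 2 TATAA matches. The Bpgm window held 3 CCAAT matches and none of the other 3 motifs. A match describes these letters only, and binding was not measured.

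Library 1 held 9932 barcodes with 100808649 unique molecular identifiers (UMIs, each standing for 1 captured transcript), and library 2 held 3659 barcodes with 33306452 UMIs. Barcodes with at least 500 genes, at least 500 UMIs and at most 10% mitochondrial UMIs were kept, 6276 in library 1 and 2893 in library 2 (median 8164 and 6279 UMIs), and 7 kept barcodes occurred in both libraries. Clustering gave 23 clusters, of which 4 were erythroid by markers that are not members. The periosteal label thus covered many blood cells: erythroid cells made up 27.8% of kept barcodes in library 1 (1742 cells) and 5.98% in library 2 (173 cells), beside 2679 and 1341 B cells and 449 and 1126 stromal cells. The adult globin genes gave 6.64% and 1.75% of all kept UMIs.

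The erythroid cells fell into 4 clusters along a falling level of Car1, here named E1 to E4. The members, like all other listed heme, iron and membrane genes, were left out of the genes used for clustering. Car1 stood at 1428 CPM (UMIs of the gene per 1000000 UMIs) in E1, 832 in E2, 473 in E3 and 13.8 in E4 of library 1, and at 1592, 818, 422 and 51.8 CPM in library 2. E1 and E2 together formed the Car1-high stage (712 and 87 cells in libraries 1 and 2), E3 the Slc4a1-high stage (581 and 52 cells) and E4 the Bpgm-high stage (449 and 34 cells). Slc4a1 and Bpgm placed these stages, so their stage values are a description. E4 held the highest level of both Slc4a1 and Bpgm among the clusters and was named for Bpgm. All 9 erythroid markers had UMIs in each stage of both libraries, and 7, 9, 8 and 4 of them defined E1, E2, E3 and E4. Median UMIs per cell fell from 57353 in E1 to 8930 in E4 of library 1, and median genes per cell from 5887.5 to 756. In library 2, E2 was shallow, with a median of 2655 UMIs against 32052 in library 1.

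UMIs of other classes lay in the erythroid barcodes as well, those of neutrophil markers mainly in library 1. The 9 neutrophil markers summed to 883, 6877 and 737 CPM in the Car1-high, Slc4a1-high and Bpgm-high stages of library 1 and to 24.6, 25 and 44.9 CPM in library 2, against 345989 and 413009 CPM in neutrophils. The 8 B cell markers summed to 71.3, 210 and 668 CPM in library 1 and 11.5, 48.7 and 701 CPM in library 2, against 8012 and 10325 CPM in B cells. The 5 endothelial markers summed to at most 5.67 CPM, and all 5 were at 0 in library 2. The part of these UMIs in the results was not tested.

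The alpha-globin genes stood higher at each step from E1 to E4. Hba-a1 stood at 706, 6046, 49620 and 110690 CPM in E1 to E4 of library 1 and at 203, 4352, 60382 and 106029 CPM in library 2. Hba-a2 stood at 403, 2123, 21535 and 81076 CPM in library 1 and at 63.7, 1040, 28003 and 71851 CPM in library 2. Both libraries kept this order, and the ranges of the 4 clusters did not overlap for either gene, a description from 2 libraries per cluster. The share of all genes whose ranges also stay apart was not counted. The libraries stood farthest apart in E1, where library 1 was higher, and were close in E4.

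The beta-globin genes followed the same course. Hbb-bs, the most counted transcript of the late cells, stood at 1958, 14660, 162293 and 403186 CPM in library 1 and at 196, 8282, 200723 and 414813 CPM in library 2. Hbb-bt stood at 695, 6682, 50770 and 107135 CPM in library 1 and at 128, 4061, 55616 and 98679 CPM in library 2. In E1 of library 2, Hbb-bs had a mean of 10.2 UMIs per cell at a median depth of 56878.5 UMIs. Stromal cells of that library had a mean of 11.3 Hbb-bs UMIs at a median depth of 9477.5 UMIs. A few cells held most of the stromal globin, and the median stromal cell there had 2 adult globin UMIs. Whether the E1 UMIs are background was not tested.

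Alas2, for the enzyme that opens heme synthesis, had the same order. It stood at 11.7, 82.3, 726 and 1688 CPM in E1 to E4 of library 1 and at 0.873, 32.8, 772 and 1667 CPM in library 2. At least 1 Alas2 UMI was in 23.3% of E1 cells and 99.5% of E3 cells of library 1, and in 4.55% and 92.3% of library 2. The library 2 value in E1 rests on 2 UMIs.

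Slc25a37 and Slc4a1 came close to their final level by E3. Slc25a37 stood at 32.6, 190, 986 and 1259 CPM in library 1 and at 12.7, 94.5, 828 and 987 CPM in library 2. Slc4a1 stood at 14.9, 218, 1241 and 1418 CPM in library 1 and at 1.31, 89.3, 900 and 990 CPM in library 2. Between E3 and E4 the 2 libraries of Slc4a1 overlapped, and for Slc25a37 the E4 value of library 2 (987 CPM) barely cleared the E3 value of library 1 (986 CPM).

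Bpgm stayed under 100 CPM until E4. It stood at 28.4, 45.5 and 68.9 CPM in E1, E2 and E3 of library 1 and then at 2029 CPM in E4, and at 18.3, 47.3, 94.6 and 1446 CPM in library 2. E4 stood above E3 by a factor of 29.4 in library 1 and 15.3 in library 2, and the earlier clusters did not overlap with it. Bpgm placed the stage of E4, so this gap is a description, and the share of all genes with such a gap was not counted. At least 1 Bpgm UMI was in 49.6% of E3 cells and 98.0% of E4 cells of library 1, and in 61.5% and 94.1% of library 2.

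**Figure D1:**
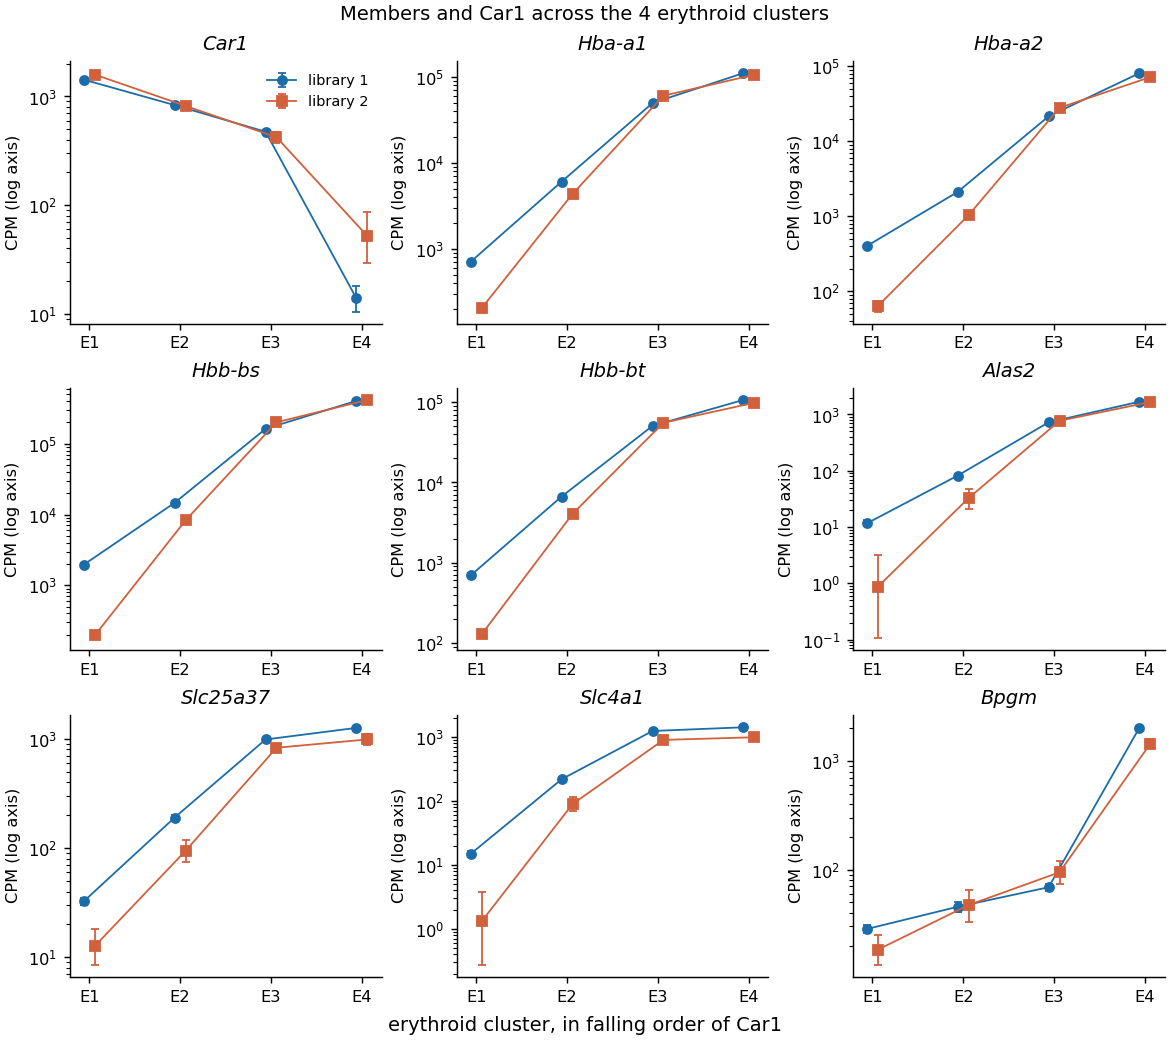
CPM (log axis) of Car1 and the 8 members in the 4 erythroid clusters E1 to E4, in falling order of Car1, with library 1 as blue circles and library 2 as red squares and bars for exact 95% Poisson intervals (counting error only). The globin genes and Alas2 climb at every step, Slc25a37 and Slc4a1 level off at E3, and Bpgm takes its large step from E3 (68.9 and 94.6 CPM) to E4 (2029 and 1446 CPM).

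The share of its Bpgm-high CPM that each member had reached in the Slc4a1-high stage gives an order of rise. Slc4a1 had reached 87.5% and 90.9% in libraries 1 and 2, and Slc25a37 78.3% and 83.9%. The globin genes and Alas2 came next and overlapped each other between libraries: Hbb-bt was at 47.4% and 56.4%, Hba-a1 at 44.8% and 56.9%, Alas2 at 43.0% and 46.3%, and Hbb-bs at 40.3% and 48.4%. Hba-a2 was lower in both libraries, at 26.6% and 39.0%, and Bpgm was last at 3.40% and 6.54%. Of the members that did not place the stages, Slc25a37 thus stood ahead of the globin transcripts and Alas2 in both libraries. Slc4a1 and Bpgm placed the stages, so their first and last places here are a description.

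CPM is a share, and the globin genes filled much of it in late cells. Counted per cell, the adult globin genes gave 465 and 171 UMIs in the Car1-high stage, 4373 and 4765 in the Slc4a1-high stage and 6346 and 5893 in the Bpgm-high stage of libraries 1 and 2. Slc4a1 was higher in CPM in the Bpgm-high stage but lower per cell, from 19.1 to 12.8 UMIs in library 1 and from 12.4 to 8.44 in library 2. Slc25a37 also turned direction with the scale, from 15.2 to 11.4 and from 11.4 to 8.41 UMIs per cell. Alas2 was higher on both scales, from 11.2 to 15.3 and from 10.7 to 14.2 UMIs per cell, and Bpgm from 1.06 to 18.3 and from 1.31 to 12.3. From the Car1-high to the Slc4a1-high stage Bpgm was higher in CPM in both libraries, but per cell it was lower in library 1, by a ratio of 0.729, and higher in library 2, by 1.46. As CPM of the UMIs that were not adult globin, Alas2, Bpgm, Slc4a1 and Slc25a37 all stood higher in the Bpgm-high than in the Slc4a1-high stage: Slc4a1 went from 1734 to 4759 in library 1 and from 1374 to 3209 in library 2.

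Clustering the erythroid cells again on their own, which was added after the data were seen, gave 13 smaller clusters. The globin share did not climb at each step of falling Car1. It was 4.23% and 22.2% in the cluster second in Car1 by the mean of both libraries (99 and 20 cells). In the third (176 and 18 cells) it was 0.734% and 0.298%. The second was shallower than the third, at a mean of 12668 and 3166 UMIs per cell against 55331 and 50912. In library 2 its Car1 was also lower, at 979 against 1151 CPM. The globin share was 0.393% and 0.618% in the tenth (37 and 9 cells), at a mean of 2206 and 1115 UMIs per cell. Slc4a1 and Slc25a37 were highest in a pair of clusters below the top of globin. In the first (147 and 20 cells of libraries 1 and 2) Slc4a1 stood at 2012 and 1219 CPM, Slc25a37 at 1608 and 1241 CPM and Bpgm at 105 and 85.9 CPM. In the second (130 and 10 cells) Slc4a1 stood at 1718 and 1247 CPM, Slc25a37 at 1707 and 1238 CPM and Bpgm at 661 and 551 CPM. Which of the pair held the highest value differed between the libraries for both genes. The 4 globin genes and Bpgm were highest in the cluster of lowest Car1 (252 and 16 cells), where Bpgm reached 2869 and 2249 CPM and the adult globin genes 77.0% and 73.7% of UMIs. In that cluster Slc4a1 was down to 1380 and 1148 CPM and Slc25a37 to 1157 and 1109 CPM. These peaks were read from the data and have no test.

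The stage steps were compared on UMIs summed per library and class, by the quasi-likelihood test of edgeR across 13379 genes. From the Car1-high to the Slc4a1-high stage, 2 of the 6 members that did not place the stages passed the adjusted threshold of 0.05, both higher, where 5.77% of all genes were called higher and 8.7% lower. In edgeR, Slc25a37 rose by 4.65 ± 0.86 (SE, log2 scale, adjusted p = 0.00133) and Alas2 by 5.78 ± 1.64 (adjusted p = 0.0214). The fitted differences of the globin genes were as large with wider errors and did not pass: 6.14 ± 2.29 for Hbb-bs, 5.95 ± 2.15 for Hba-a2, 5.59 ± 2.14 for Hba-a1 and 5.53 ± 2.18 for Hbb-bt (edgeR adjusted p from 0.0687 to 0.0936). The stage fit held all 13 classes and stages, so these errors also hold the spread between libraries in classes that were not erythroid. In the fit described below on ranges of erythroid cells only, the SE of Hba-a1 was 0.63 at its first step. The sums of a library share that library, and a fit with a replicate block for the library passed all 6 in edgeR (adjusted p from 5.55e-07 for Slc25a37 to 0.0101 for Hbb-bs), where 12.3% of all genes were called higher and 13.7% lower. All 6 were higher in both libraries, the CPM ratios being 13.3 and 25 for Slc25a37, 24.0 and 87.3 for Alas2 and from 22.4 to 91.1 for the globin genes.

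From the Slc4a1-high to the Bpgm-high stage, 0 of the 6 members passed in edgeR, also at an unadjusted p under 0.05, where 6.01% of all genes were called higher and 7.74% lower. The fitted log2 differences were 2.81 ± 1.86 for Hba-a2, 2.31 ± 1.92 for Hbb-bs, 2.30 ± 1.4 for Alas2, 2.13 ± 1.83 for Hba-a1, 2.11 ± 1.87 for Hbb-bt and 1.48 ± 0.76 for Slc25a37 (adjusted p from 0.212 to 0.535). With the replicate block, Slc25a37 passed (1.34 ± 0.40, edgeR adjusted p = 0.0188), and 9.57% of all genes were called higher and 12% lower. These differences depend on the scaling: the TMM factors of the Bpgm-high sums were 0.232 and 0.464, and the plain CPM ratios of Slc25a37 were 1.28 and 1.19. As a description, Bpgm differed by 5.65 and Slc4a1 by 1.36 on the same scale. With each cell staged on its own instead of by its cluster, Slc25a37 and Slc4a1 changed sign, to -0.75 and -0.97.

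A second order that no member entered allowed all 8 to be tested. Each erythroid cell received an index, the log2 ratio of its UMIs from 9 early genes (such as Car1, Kit and Myb) to those from 7 late genes (such as Bnip3l, Isg20 and Trim58), and the cells were cut into early, middle and late ranges of equal size. All 8 members rose from the early to the middle range, where 8.49% of all genes were called higher and 6.28% lower, and again from the middle to the late range, where 11.6% were called higher and 11.7% lower. With the replicate block 19.1% and 18.3% were called higher at these steps, and all 8 members still passed. Per cell, Bpgm did not keep this direction in library 1 at the first step, where it went from 1.45 to 1.39 UMIs, and in library 2 it went from 0.95 to 1.24. From early to middle the edgeR log2 differences ran from 4.28 ± 0.57 for Slc25a37 to 5.95 ± 0.94 for Hbb-bs, with Bpgm apart at 1.98 ± 0.45 (adjusted p from 0.00267 to 0.0187). From middle to late, Bpgm was highest at 5.34 ± 0.51 (edgeR adjusted p = 0.000855), and the other 7 ran from 2.73 ± 0.67 for Slc4a1 to 4.16 ± 0.67 for Hba-a2 (adjusted p from 0.00282 to 0.0165).

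The index gave the same ends of the order as the stages. In the middle range, Slc4a1 stood at 51.5% and 37.5% of its late CPM in libraries 1 and 2 and Slc25a37 at 46.8% and 35%, ahead of the globin genes and Alas2, which ran from 15.9% to 31.0%. Bpgm stood at 5.55% and 11.2%. The late range held cells of both later stages (184 and 24 of the Slc4a1-high stage, 403 and 27 of the Bpgm-high stage), and both orders come from the same cells.

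**Figure D2:**
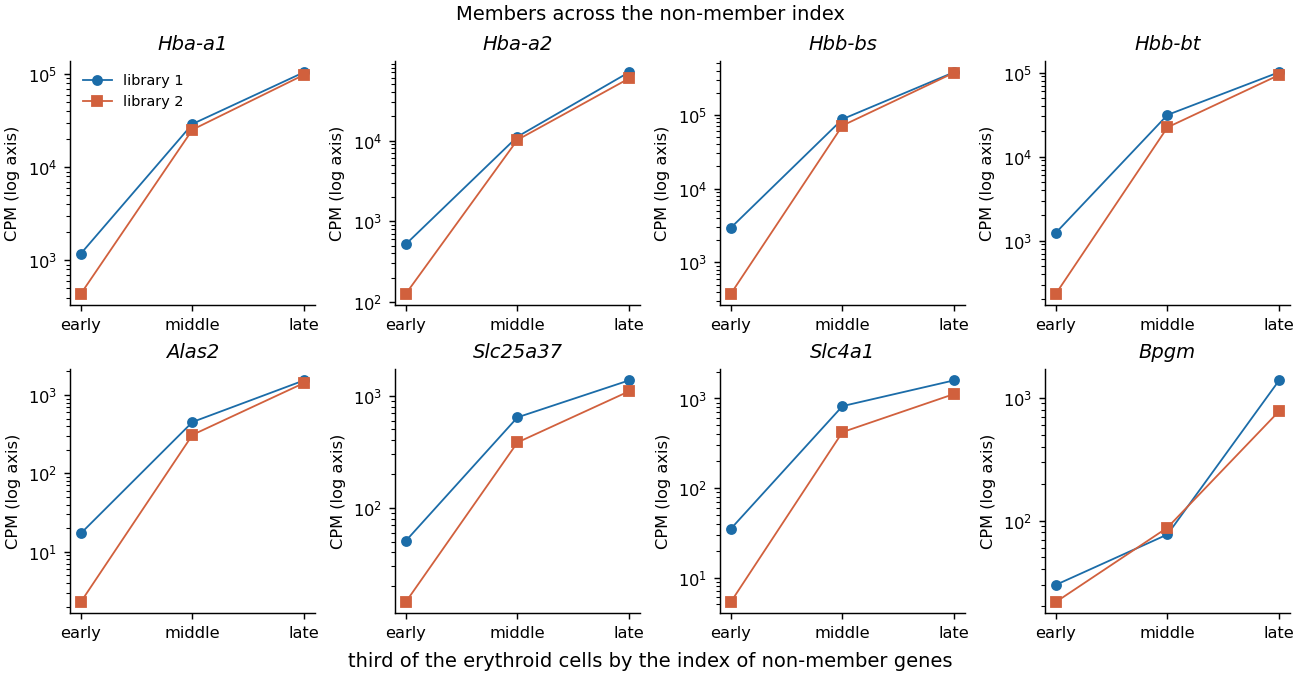
CPM (log axis) of the 8 members in the early, middle and late ranges of the erythroid cells by the index of non-member genes, with library 1 as blue circles and library 2 as red squares. Each member climbs at both steps in both libraries, and Bpgm takes its larger step last (77.1 and 87.6 CPM in the middle range, 1388 and 779 CPM in the late range).

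Adult globin transcripts took a growing share of each cluster's UMIs. The share was 0.376% in E1, 2.95% in E2, 28.4% in E3 and 70.2% in E4 of library 1, and 0.0591%, 1.77%, 34.5% and 69.1% in library 2. Single cells spread widely around these values. In the Slc4a1-high stage the share per cell ran from 1.75% to 78.6% with a median of 33.1% in library 1, and from 0.910% to 65.1% with a median of 43.7% in library 2. Over 50% of UMIs were adult globin in 22.4% and 34.6% of Slc4a1-high cells and in 83.1% and 85.3% of Bpgm-high cells. In the Car1-high stage the medians were 0.238% and 0.1%.

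**Figure D3:**
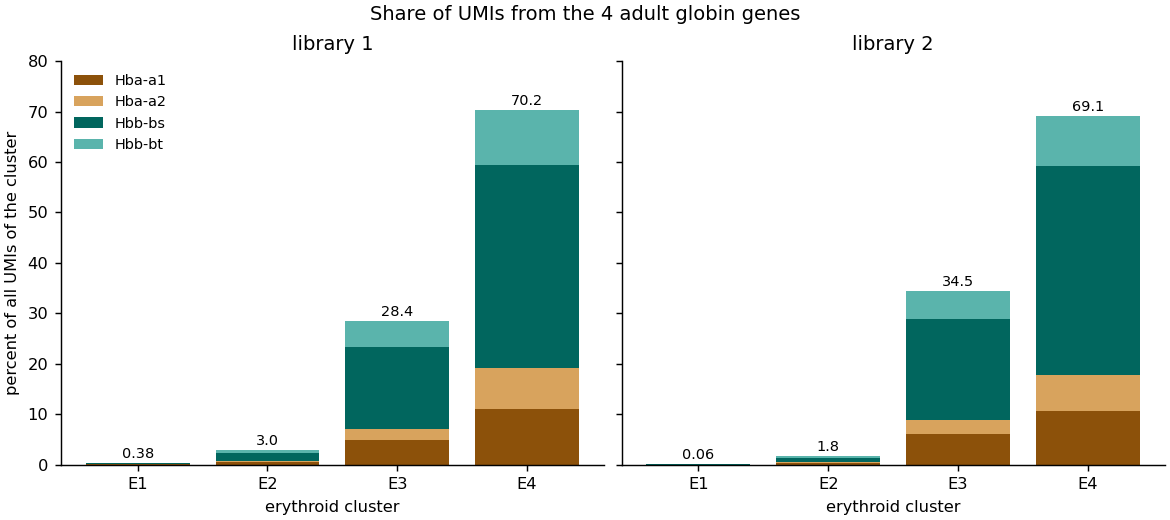
Percent of all UMIs of each erythroid cluster that came from the 4 adult globin genes, stacked by gene, in library 1 (left) and library 2 (right). The share climbs from under 1% in E1 to 70.2% and 69.1% in E4, and Hbb-bs is the largest part in every cluster but E1 of library 2.

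The balance within each globin pair shifted along the same clusters. A 3′ library counts 1 UMI per captured transcript, so counts of the pair can be set against each other, within the uncertainty of placing their reads. Hba-a2 gave 36.3%, 26.0%, 30.3% and 42.3% of the alpha-globin UMIs in E1 to E4 of library 1, and 23.9%, 19.3%, 31.7% and 40.4% in library 2. Its share thus was lowest in E2 and highest in E4 in both libraries. Hbb-bt gave 26.2%, 31.3%, 23.8% and 21% of the beta-globin UMIs in library 1, and 39.5%, 32.9%, 21.7% and 19.2% in library 2, so its share was lowest in E4. Alpha-globin genes together gave 25% and 25.6% of adult globin UMIs in E3 and 27.3% and 25.7% in E4. The libraries differed most in E1, where library 1 had 201 and library 2 had 30.8 globin UMIs per cell. No test was run on these shares.

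**Figure D4:**
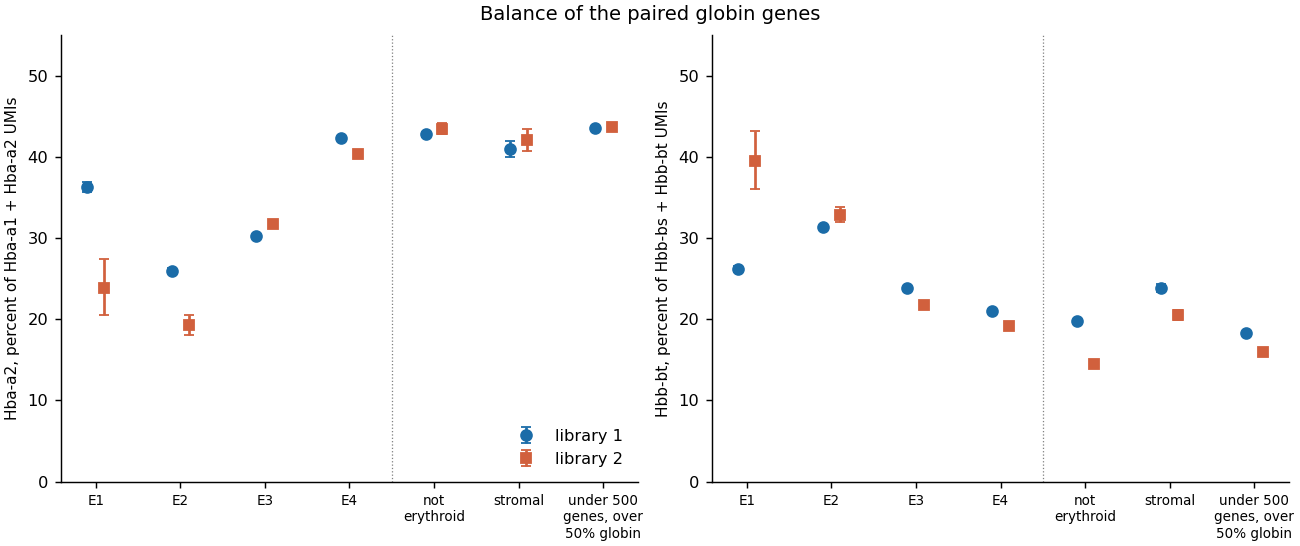
Percent of alpha-globin UMIs from Hba-a2 (left) and of beta-globin UMIs from Hbb-bt (right) in E1 to E4, in all cells that were not erythroid, in stromal cells and in removed barcodes with under 500 genes and over 50% globin, with exact 95% binomial intervals (counting error only). Hba-a2 rises to 42.3% and 40.4% in E4 and stays between 41.0% and 43.7% in the 3 groups on the right, while Hbb-bt falls to 21% and 19.2% in E4.

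Other genes of the heme pathway rose at the first step. Of 14 listed heme genes besides Alas2, 7 rose and 0 fell from the Car1-high to the Slc4a1-high stage (11 with the replicate block), with a median log2 difference of 1.82 against -0.02 over all genes tested. Over all genes 5.77% were called higher at this step, and 12.3% with the block. Fech, which inserts iron into the ring, rose by 2.78 ± 0.80 (edgeR adjusted p = 0.0241), from 134 and 65.5 CPM to 523 and 391 CPM, and Ppox, which makes protoporphyrin, rose from 87.7 and 57.3 to 262 and 296 CPM. Abcb10, a mitochondrial transporter that binds mitoferrin 1, rose from 100 and 41.3 to 335 and 257 CPM, a call that was lost in 3 of 12 alternatives. From the Slc4a1-high to the Bpgm-high stage 0 rose and 2 fell in edgeR, beside 6.01% of all genes called higher and 7.74% lower. Tmem14c, a mitochondrial porphyrin transporter, fell from 2151 and 2138 to 134 and 280 CPM. Neither of the 2 falls passed in edgeR at clustering resolution 1.2, where the adjusted p of Tmem14c was 0.07. Along the index, 9 rose and 0 fell at the first step and 8 rose and 1 fell at the second. Over all genes 8.49% and then 11.6% were called higher at these steps, and 11.7% lower at the second.

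Of 14 iron and heme handling genes listed besides Slc25a37, 1 rose and 0 fell at the first stage step, near the 5.77% of all genes called higher, with a median log2 difference of 0.56 (3 rose and 1 fell with the replicate block). At the second 1 rose and 0 fell, with a median of -0.03 (2 rose and 1 fell with the block), beside 6.01% of all genes called higher. Both calls were Eif2ak1, the heme-regulated kinase that slows globin synthesis when heme is short. It stood at 44.8 and 26.5 CPM in the Car1-high stage, 152 and 142 CPM in the Slc4a1-high stage and 354 and 297 CPM in the Bpgm-high stage, and rose by 2.61 ± 0.55 (edgeR adjusted p = 0.00343) and 2.32 ± 0.54 (adjusted p = 0.00798). The second rise was 0.18 and did not pass when each cell was staged on its own instead of by its cluster (edgeR adjusted p = 0.96).

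Membrane genes were called mainly at the first stage step. Of 19 listed besides Slc4a1, 7 rose and 0 fell there (15 and 0 with the replicate block), with a median log2 difference of 2.44. Over all genes 5.77% were called higher there, and 12.3% with the block. Tmod1, which caps the actin filaments of the membrane skeleton, rose from 6.84 and 4.26 to 119 and 83.5 CPM, a log2 difference of 4.75 ± 0.73 (edgeR adjusted p = 0.000256). Dmtn, the dematin gene, rose from 19.1 and 15.4 to 176 and 186 CPM. At the second step 2 rose and 1 fell, beside 6.01% of all genes called higher and 7.74% called lower. Epb41, the protein 4.1 gene, rose from 193 and 159 to 656 and 387 CPM. The nucleoside transporter gene Slc29a1 fell from 82.6 and 97.4 to 4.68 and 3.45 CPM. The other call, the glucose transporter gene Slc2a1, rests on 3.45 CPM or less in every stage sum. With each cell staged on its own, Epb41 differed by 0.82 and Slc29a1 by -0.42 and neither passed (edgeR adjusted p = 0.621 and 0.709). Along the index 13 of 18 tested rose at the first step, and 16 rose and 1 fell at the second. Over all genes 8.49% and 11.6% were called higher at these steps, and 11.7% lower at the second.

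The other globin genes were rare or late. The theta-globin gene Hbq1b rose at the first stage step, from 2.32 and 2.29 to 63.5 and 109 CPM (5.72 ± 0.94, edgeR adjusted p = 0.000268), and stood at 88.0 and 110 CPM in the Bpgm-high stage. Hbq1a rose at the second, from 1.23 and 0 to 14.3 and 6.90 CPM (4.73 ± 1.08, edgeR adjusted p = 0.00652), but not in DESeq2 (adjusted p = 0.285). Hba-x, Hbb-bh1, Hbb-bh2 and Hbb-y, the embryonic-type genes, were too low to enter the stage fit. Hbb-y had 140 UMIs in 44 erythroid cells of library 1 and 30 UMIs in library 2, where they all came from 1 cell.

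Over the 13 cell classes and stages, the 4 globin genes moved almost as 1. Their Pearson correlations of log2(CPM + 10) ran from 0.983 to 0.996, those between Alas2, Slc25a37 and Slc4a1 from 0.974 to 0.986, and those of Bpgm with the other members from 0.733 to 0.786. Among 10202 other genes, the 3 most like each globin gene included Ppox for Hba-a1 (0.963) and Hbb-bt (0.964), Gm16867 for Hba-a1 (0.954), Hba-a2 (0.957) and Hbb-bs (0.948), and Gm20161 for Hba-a2 (0.958) and Hbb-bs (0.943). Gm20161 (0.988) and Hbq1b (0.984) were most like Alas2. Epb42, the protein 4.2 gene, led for Slc4a1 (0.986), with Trim10 (0.984) and 5430401H09Rik (0.978), and stood among the first 3 for Slc25a37 (0.9754), with Gm16867 (0.976) and 5430401H09Rik (0.974). Bpgm had other neighbours, Syt14 (0.956), Trim58 (0.951) and 5830448L01Rik (0.948). These values are a description over 13 points that share libraries and depth.

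All 8 members were higher in the erythroid stages than in the mean of the other 10 classes. The edgeR log2 differences ran from 5.69 ± 0.75 for Hba-a2 to 6.34 ± 0.78 for Hbb-bt among the globin genes, and were 5.82 ± 0.60 for Alas2, 5.69 ± 0.76 for Slc4a1, 4.65 ± 0.32 for Slc25a37 and 3.28 ± 0.33 for Bpgm (adjusted p from 1.47e-10 to 2.39e-06). In this broad contrast 21.4% of all genes were called higher and 18.6% lower. Outside the erythroid cells Slc4a1 stood between 6.43 and 108 CPM in library 1 and between 0 and 6.89 CPM in library 2. In both libraries Bpgm lay above its Car1-high level (32.9 and 25.6 CPM) in 3 stromal classes: it stood at 106 and 63.8 CPM in chondrocytes, 170 and 102 CPM in skeletal muscle cells and 79.7 and 49.2 CPM in Lepr+ stromal cells. Hbb-bs also stood higher in Lepr+ stromal cells (10837 and 5021 CPM) than in the Car1-high stage (5295 and 2214 CPM), as did Hba-a2, Hbb-bt and Alas2 in both libraries. Few barcodes carried the globin of that class: its top 5% by globin held 93.0% and 97.3% of it. A single barcode held 8947 of 16301 adult globin UMIs in library 1, and another held 8803 of 16765 in library 2. The median Lepr+ stromal cell held 10 and 2.

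Globin UMIs were also in nearly every stromal cell. At least 1 adult globin UMI was in 99.6% of 449 stromal cells of library 1 (exact 95% binomial interval 98.4 to 99.9%) and in 84.5% of 1126 of library 2 (82.2 to 86.5%), at median depths of 8738 and 9478 UMIs. At least 3 were in 92.9% and 34.9%. With each cell thinned to 1000 UMIs, which left out 2 and 14 shallower cells, the shares were 72.5% and 24.7%. The libraries thus differed at equal depth, and the library with more globin UMIs in its barcodes had the higher share. B cells, which are not known to express globin, differed in the same direction. A globin UMI was in 99.4% and 83.9% of them, at median depths of 3851 and 4014 UMIs. The libraries also differed in their mix of cell classes and in their share of erythroid cells. Whether the share of stromal cells with globin follows the globin of a library was not tested.

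Most stromal globin UMIs came from a few cells. The median stromal cell held 11 globin UMIs in library 1 and 2 in library 2, while the means were 88.8 and 18.8. The 5% of stromal cells with the most globin held 84.8% and 89.9% of it, and 21 and 8 cells had over 100 globin UMIs. In the 355 and 1092 stromal cells without a UMI of Car1, Klf1, Gata1, Epor, Hemgn or Tspo2 the mean was 12.6 and 4.97. The erythroid markers Car2, Prdx2 and Blvrb were not part of this filter. Mean globin UMIs per cell ran from 14.2 in P-SSC/fibroblast cells to 151 in Lepr+ stromal cells of library 1, and from 2.66 in skeletal muscle cells to 61.2 in Lepr+ stromal cells of library 2. The medians were between 4 and 25.5 in library 1 and at 2 in all 5 stromal classes of library 2. The Lepr+ class is weakly marked in library 2, where its 5 markers summed to 827 CPM against 16502 CPM in library 1.

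Summed over all stromal cells and set against the globin UMIs of the same cells, Alas2 stood near its erythroid level. Slc25a37 and Bpgm stood above theirs in both libraries. Hba-a2 gave 41.0% and 42.1% of stromal alpha-globin UMIs, against 36.4% and 35% in all erythroid cells and 42.3% and 40.4% in E4. Hbb-bt gave 23.8% and 20.5% of stromal beta-globin UMIs, against 22.8% and 20.97% in all erythroid cells. Alas2 stood at 2.43 UMIs per 1000 adult globin UMIs in stromal cells of library 1 (exact 95% Poisson interval 1.97 to 2.97) and 2.69 in library 2 (2.04 to 3.49), against 2.50 and 2.30 in the erythroid cells. These intervals include the erythroid values. The 5% of stromal cells with the most globin held 84.8% and 89.9% of the globin UMIs, so these shares and ratios describe mainly those cells. The values without them were not computed, so the ratios in the typical stromal cell are not known here. Slc25a37 stood at 5.16 and 8.5 per 1000 in stromal cells against 2.84 and 2.12, and Bpgm at 9.83 and 30.5 against 1.73 and 1.22. Slc4a1 stood above the erythroid value in library 1 (4.91 against 3.32) and below it in library 2 (1.13 against 2.17). Bpgm UMIs in chondrocytes, 207 and 430, were the larger part of the stromal Bpgm UMIs, 392 and 646. In library 2, 0 Alas2 UMIs were in skeletal muscle cells, neutrophils and monocyte/macrophage cells. These classes held only 170, 236 and 63 adult globin UMIs, too few to set against an erythroid ratio of 2.30 per 1000. A count of 0 allows up to 3 UMIs in each, and intervals cover counting error only.

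**Figure D5:**
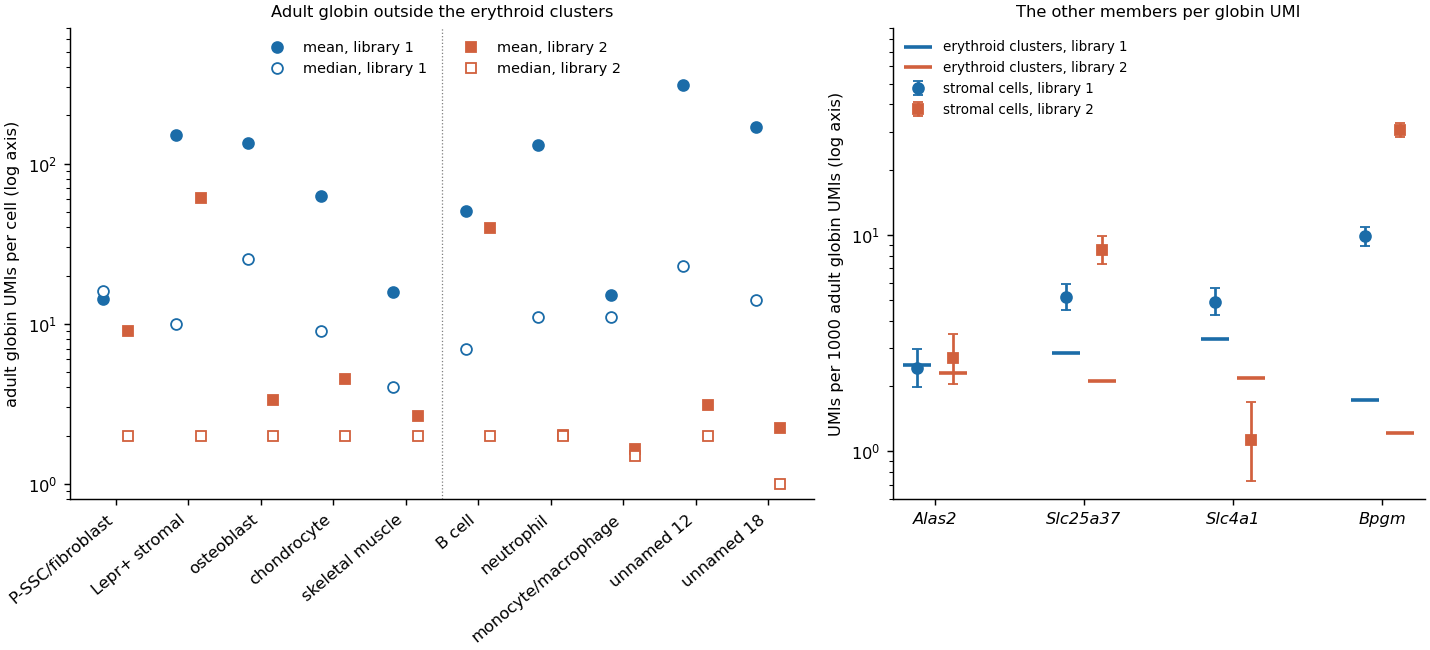
Left, mean (filled) and median (open) adult globin UMIs per cell (log axis) in the 5 stromal classes and, right of the dotted line, in the other classes that were not erythroid. Right, UMIs of Alas2, Slc25a37, Slc4a1 and Bpgm per 1000 adult globin UMIs (log axis), summed over all stromal cells, against the level in the erythroid clusters (lines). Bars are exact 95% Poisson intervals (counting error only). Library 1 lies above library 2 in each class, and Alas2 lies at its erythroid level (2.43 and 2.69 against 2.50 and 2.30) while Bpgm lies above it (9.83 and 30.5 against 1.73 and 1.22).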

How the data were processed

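Per the labels, the authors made 10x Genomics 3′ libraries, and the submitters' processing notes name Cell Ranger 6.1.2 and mm10. The deposited values are UMI counts per gene and barcode, not normalized. The members and gene lists were chosen with earlier results of these data known.

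Barcodes with at least 500 genes, at least 500 UMIs and at most 10% mitochondrial UMIs were kept, and no doublet caller was run. Both libraries were integrated with Seurat 5.3.0 in R 4.3.3 by canonical correlation analysis (3000 variable genes, 15 principal components, 30 anchor dimensions, resolution 0.8), with 61 globin, heme, iron and membrane genes, the members included, left out of the variable genes. A cluster was named from at least 3 markers at a log2 fold of at least 1 (10 CPM added) and in at least 20% of its cells, and otherwise by its number. Names rebuilt in this way can differ from those of the study. An erythroid cluster took the stage of whichever of Car1, Slc4a1 and Bpgm stood closest to its own highest cluster level, and a tie in E4 went to Bpgm.

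UMIs were summed per library and class (at least 10 cells in each library) and compared with edgeR 4.0.16 (filterByExpr, TMM, glmQLFit, glmQLFTest, Benjamini-Hochberg adjustment over all genes tested, threshold 0.05), with DESeq2 1.42.0 as an alternative. All 13 classes and stages entered 1 fit, and the index ranges another. A replicate block was tried because the sums of 1 number come from the same library. Deviations of the same library correlated between classes at 0.0465 to 0.464 over 78 pairs of classes (median 0.198). The genes named were the members, the other globin genes, up to 3 genes with the largest rise and fall per list and stage step, and the 3 genes most like each member (10202 genes above 20 CPM in a class). Some genes that this rule names are not reported here. Genes from lists open to the clustering have counts that are descriptions. The alternatives were another filter on genes or barcodes, another clustering, DESeq2, the block and each library left out. The scripts were tested on simulated data. Python 3.11.15, numpy 2.4.6, pandas 2.3.3 and scipy 1.17.1 were used.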

Additional observations from a re-analysis of the deposited data

Results flagged for a closer look

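Barcodes removed for having under 500 genes held many of the globin UMIs of both libraries, a signal outside the cells compared above. They held 41.6% of all adult globin UMIs of library 1 and 78.4% of library 2. Among them, 535 barcodes of library 1 and 318 of library 2 had over 50% adult globin UMIs, at a median of 9408 and 7112 UMIs but only 195 and 94.5 genes per barcode. The median barcode of this kind was 94.6% and 96.5% globin. In these barcodes with over 50% globin, Bpgm stood at 2001 and 1616 CPM and Alas2 at 1522 and 1607 CPM, near the E4 levels. Slc4a1 stood at 206 and 106 CPM and Slc25a37 at 229 and 170 CPM, below the E3 and E4 levels of both libraries, and Car1 at 4.55 and 0.492 CPM. Hba-a2 gave 43.6% and 43.7% of their alpha-globin UMIs. As CPM of the UMIs that were not adult globin, Slc4a1 stood at 3141 and 2097 in these barcodes. That lies between E3 (1734 and 1374) and E4 (4759 and 3209). Slc25a37 stood at 3480 and 3375, above E3 (1377 and 1263) and on either side of E4 (4225 and 3198). Bpgm (30463 and 32065) and Alas2 (23166 and 31889) stood above E4 (6810 and 4685, 5667 and 5401) on that scale. Another 1675 barcodes of library 1 and 248 of library 2, within the mitochondrial limit, had under 500 genes and at most 50% globin. There Slc4a1 stood at 4364 and 1180 CPM, Slc25a37 at 2804 and 1378 CPM and Bpgm at 4174 and 2412 CPM. These levels were above E4 of the same library, whereas Alas2 was below it, at 1136 and 595 CPM. The order depends on the globin share, which was larger in E4. As CPM of the UMIs that were not adult globin, Slc25a37 stood below E4, at 3464 and 1599 against 4225 and 3198. In library 1 Bpgm also stood below E4 on that scale (5155 against 6810), while Slc4a1 stayed above it (5391 against 4759). No difference was tested.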

How the results depend on the processing

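Of 320 member values under the alternatives, 300 kept their direction and their side of the threshold, 14 passed it only under the alternative (12 at the first stage step, 2 at the second), 4 values without a test moved and 2 reversed. Both reversals were at the second stage step when each cell was staged on its own instead of by cluster, where Slc25a37 went to -0.75 and Slc4a1 to -0.97 (log2). At the first stage step 1936 genes were called, and 3480 with the replicate block. Of the 6 members tested there, 2 passed, against 4 with no filter on low counts, 6 with DESeq2 and 6 with the replicate block. At the second step 1839 genes were called, against 2891 with the block, 465 at resolution 1.2, 810 with barcodes of at least 200 genes and 491 with each cell staged. Of the 6 members, 0 passed in edgeR, 1 with DESeq2 and 1 with the block. The contrast with the other classes called 5344 genes and 3561 with barcodes of at least 200 genes. The index steps called 1350 and 2129 genes, and 3373 and 3357 with the block, which changed no other call named here. The globin share of the Slc4a1-high stage (mean of both libraries) was 31.4% and 25.2% at resolution 0.4, and that of the Bpgm-high stage 69.7%, against 74.6% with at least 200 genes and 65.8% at resolution 1.2. The share of stromal cells with globin was 92.0% as a mean of both libraries, 63.9% at 3 or more UMIs and 48.6% after thinning. Mean stromal globin was 53.8 UMIs per cell, and 8.76 without cells that held UMIs of Car1, Klf1, Gata1, Epor, Hemgn or Tspo2. Of 504 values of the list genes named, 444 kept their direction and call, 53 lost the call and 7 reversed, all without passing. Slc2a1 at the second step went to -3.79 at resolution 1.2 and -4.87 with at least 200 genes. With each cell staged, Foxo3 went to -0.28, Gpx1 to -0.14, Txnrd2 to -0.24, Pfkm to 0.086 and Gapdh to 0.51 at that step. The cause of these shifts was not tested.

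Leaving out each library in turn gave globin shares of 0.487% to 1.05%, 28.4% to 34.5% and 69.1% to 70.2% in the 3 stages, 84.5% to 99.6% of stromal cells with globin and 18.8 to 88.8 globin UMIs per stromal cell. With 1 library no residual degrees of freedom remain, so no test was run, and all 80 single-library differences of the members kept their direction. Erythroid barcodes free of UMIs from Cd79a, Cd79b, S100a8, S100a9, Col1a1 and Dcn numbered 17, 7 and 9 in the stages of library 1, too few for a fit. Other markers of B cells, neutrophils and stromal cells were not part of this filter. Library 2 held 34 to 87 cells per stage, which limits its low values, such as 2 Alas2 and 3 Slc4a1 UMIs in E1.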

Other observations

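Lists that were open to the clustering are described here without support from their counts. Over all genes 5.77% were called higher and 8.7% lower at the first stage step, and 6.01% and 7.74% at the second. At the second step the calls of Foxo3, Ldb1, Xpo7, Trim58, Gpx1 and the glycolysis genes Pfkm and Gapdh were lost in edgeR when each cell was staged on its own, and Foxo3, Gpx1, Pfkm and Gapdh then changed sign. That of Myb at the first step was lost there too. Of 13 glycolysis genes, 0 rose and 6 fell from the Car1-high to the Slc4a1-high stage and 2 (Pfkm and Gapdh) fell at the next step, while Bpgm went the other way. With the replicate block 9 fell at the first step and 3 at the second. Ldha, which makes lactate, fell by 3.57 on the log2 scale at the first step. Of 12 cell cycle genes, 6 rose at the first step (8 with the block) and 8 fell at the second (8 with the block). Rrm2, a subunit of ribonucleotide reductase, rose by 2.40 at the first step, and Tyms, which makes thymidylate, fell by 4.02 at the second, the step where Bpgm rose.

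Of 7 red-cell antioxidant genes, 3 rose at each step and 0 fell (5 and 3 rose with the block), among them Gpx1 at both steps. Of 13 erythroid transcription factor genes, 1 rose and 1 fell at each step, near the share over all genes, and with the block 5 rose and 3 fell at the first and 2 rose and 1 fell at the second. In the fit without the block Foxo3 rose by 1.80 and then by 1.62, Myb fell by 2.43 at the first step and Ldb1 fell by 2.45 at the second. Of 11 late erythroid genes, 7 of which make up the late side of the index, 6 rose at each step and 0 fell (9 and 8 rose with the block). Xpo7, a nuclear exporter, rose by 6.98 and Trim58, a ubiquitin ligase of late erythroblasts, by 4.60 at the second step.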
